A study of Mus musculus with 9 samples.

Results

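The genes described here are the matrix metalloproteinases (Mmp), the ADAMTS proteinases (Adamts) and the tissue inhibitors of metalloproteinases (Timp) of the mouse, read from RNA sequencing of cardiosphere-derived cells. They were chosen by name, as the protein-coding genes whose symbol begins with Mmp, Adamts or Timp and a number, which gave 45 of the 54532 genes in the table: 22 Mmp, 19 Adamts and 4 Timp genes. One further gene with a matching name, Mmp1a, is annotated as a polymorphic pseudogene and was not included. The 9 libraries came from 3 groups of 3, all of the C57BL/6 strain. pECDCs were primary, untreated cells grown from explants of the ventricle, which the methods trace to the epicardium of adult mice. iECDCs were untreated cells immortalized with hTERT, the catalytic subunit of human telomerase, at passage 30. The third group had received SB431542, a small molecule that blocks the kinase of the type I TGF-β receptor. The labels call these treated cells immortalized cells at passage 30, exposed for 3 days and therefore also carrying hTERT, whereas the methods describe treated cells of an epithelial clone derived from pECDCs. Both untreated groups were therefore taken as a reference in turn. The methods speak of biological replicates, but neither they nor the labels say whether the 3 libraries of a group came from separate cultures or animals, so the p-values measure the spread between these libraries, which may be technical.

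Matrix metalloproteinases are zinc enzymes that are made as inactive precursors and, once activated outside the cell or at its surface, cleave collagens, gelatin, laminins, proteoglycans and other matrix proteins. ADAMTS enzymes are secreted relatives with thrombospondin repeats, of which some cleave large proteoglycans such as versican and aggrecan and others trim the amino-terminal propeptide from fibrillar procollagens. TIMPs bind the active enzymes and block them, and in the heart the balance of enzymes and inhibitors is known for its part in the remodelling of the matrix by fibroblasts and epicardium-derived cells.

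Total counts ranged from 19462912 to 23951392 in pECDC, from 16568306 to 20204216 in iECDC and from 17063137 to 20849975 in SB431542-treated libraries. Replicate 2 of the treated cells and replicate 3 of the iECDCs stood apart from the other libraries of their groups. Log2 depth-scaled counts of treated replicates 1 and 3 correlated at r = 0.997, and those of replicate 2 with either of them at r = 0.979. The corresponding values were 0.997 for iECDC replicates 1 and 2, and 0.990 and 0.991 for replicate 3 with these. Across the groups, treated replicate 2 correlated with iECDC replicate 3 at r = 0.979, as closely as with the other treated libraries. The reason was not tested. Cdkn2a, the INK4a/ARF locus, had 550, 407 and 562 counts in pECDCs, 0, 1 and 0 in iECDCs and 0 in each treated library. Fibroblast and mesenchymal markers were high in sum in every group. Over 11 genes, summed FPKM (fragments per kilobase of transcript, scaled to the depth of the library) was 1856 to 1910 in pECDCs, 1870.4 to 2222 in iECDCs and 1473 to 2054 in treated cells. Vim and Col1a1 had the highest levels, whereas Postn and Lum had at most 12 and 8 counts. Dcn had a mean FPKM of 0.768 in pECDCs, 0.470 in iECDCs and 13.2 in treated cells. Of 9 epithelial and mesothelial markers, Epcam, Krt8 and Cdh1 had at most 2 counts in any library, also in the treated cells that the methods call epithelial, whereas Krt19 had 758, 1480 and 765 counts there. Of all genes tested, 16.0% were higher in treated cells than in iECDCs and 14.0% lower. Of the 3 markers tested there, 2 were higher in treated cells and 0 lower. These were Upk3b, with 12, 10 and 9 counts in pECDCs, 4, 8 and 9 in iECDCs and 72, 97 and 87 in treated cells (log2 fold change 3.45, SE 0.35, adjusted p = 0.000912), and Wt1, with 14, 4 and 3, then 2, 2 and 0, then 43, 14 and 39 counts (adjusted p = 0.00615). Both passed the filter on low counts only through the treated libraries and had to differ. Upk1b and Msln were not tested in this comparison. Upk1b had 19, 5 and 9 counts in iECDCs and 8, 68 and 7 in treated cells. Msln had 6, 3 and 0, then 5, 18 and 11. The part of epithelial or mesothelial cells in the results below was not tested. All values are from bulk RNA, in which fewer cells of a type and less RNA per cell cannot be told apart.

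The inhibitors and a single membrane proteinase gave most of the transcripts of the system. In pECDCs the mean FPKM was 1220.1 ± 22.4 (SD, n = 3) for Timp1, 325 ± 11.99 for Timp2, 120.2 ± 5.39 for Timp3 and 109 ± 1.12 for Mmp14, the membrane-type enzyme that activates the Mmp2 precursor. Mmp23 (23.7 ± 1.53) and Mmp2 (22.4 ± 0.765) followed, with overlapping libraries, and then Adamts1 at 18.2 ± 0.627. In iECDCs the order of the first 6 was Timp1, Timp2, Mmp14, Timp3, Mmp23 and Mmp2, and no neighbours among these overlapped. In treated cells Mmp3 stood between Timp2 and Mmp14, although its libraries overlapped those of Mmp14. A mean FPKM of at least 1 was reached by 21 of the 45 genes in pECDCs, 18 in iECDCs and 21 in treated cells. The gelatinase Mmp9, the matrilysin Mmp7 and the macrophage elastase Mmp12 had at most 1 count in any library.

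**Figure D1:**
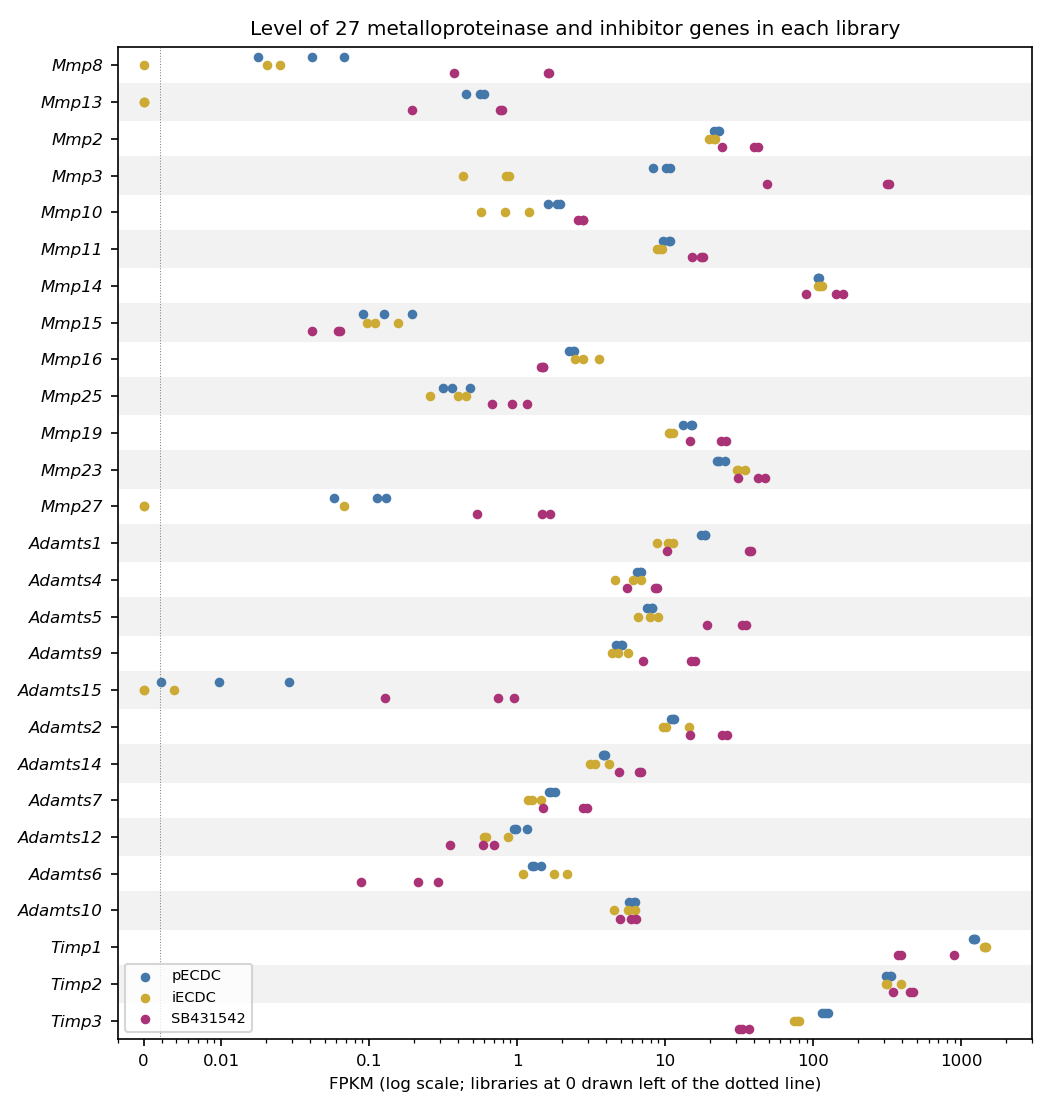
FPKM on a log scale for the 27 genes that were called in a comparison or whose FPKM averaged 1 or more in a group; each point is 1 library and the colours mark the 3 groups. Timp1 and Timp2 lie at the right in all groups, Mmp3 runs from under 1 in iECDCs to 315 and 322 in 2 treated libraries, and 1 treated library often lies nearer to the other groups than the other two.

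Of the 45 genes, 30 had enough counts to be tested in at least 1 comparison and 15 in none. The test was edgeR's quasi-likelihood test on the counts, fitted over all genes of the compared libraries, and a gene was called at a Benjamini-Hochberg adjusted p under 0.05. Between iECDCs and pECDCs, 27 of the genes were tested, of which 2 were higher in iECDCs (7.41%) and 8 lower (29.6%). Over all 13752 genes tested, 7.21% were higher and 9.21% lower. The median log2 fold change was -0.15 over the 27 genes, with or without Mmp13, which was tested only through its counts in pECDCs, and -0.00 over all genes. When all 9 libraries entered the fit, 4 of the 10 calls remained, those of Mmp13, Mmp3, Mmp10 and Timp3. Over all genes that fit called 671 of 14210 tested, beside 2258 of 13752 in the fit of the compared libraries.

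Between SB431542-treated cells and iECDCs, 27 genes were tested, with 15 higher (55.6%) and 4 lower (14.8%) in treated cells. Over all 13559 genes tested, 16.0% were higher and 14.0% lower. The share of lower genes was thus near that of all genes, whereas the share of higher genes was above it. Mmp8, Mmp27 and Adamts15 passed the filter only through the treated libraries and had to differ. Of the other 24, 12 were higher and 4 lower, with a median log2 fold change of 0.79 against 0.00 over all genes. Against pECDCs, 30 genes were tested, with 13 higher (43.3%) and 6 lower (20.0%) in treated cells, beside 17.9% and 17.0% of all 14015 genes tested. Mmp8, Mmp27, Adamts15 and Mmp15 passed through 1 group only, and 10 of the other 26 were higher and 5 lower. The 3 comparisons share libraries pairwise, so their values are set side by side without a test of their likeness.

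Treated replicate 2 was the treated library nearest to the iECDC mean in 17 of the 19 genes called in that comparison. This was not particular to these genes. Over all genes treated replicate 2 correlated with the iECDC libraries at r = 0.975 to 0.979, and treated replicates 1 and 3 at 0.945 to 0.948. The TGF-β target Pmepa1 showed the same order, with FPKM of 2.54, 5.27 and 2.32 in treated replicates 1, 2 and 3 against 64.1, 66.4 and 70.5 in iECDCs. Leaving this library out raised the number of called genes of the 45 from 19 to 25 (21 higher, 4 lower) against iECDCs. Against pECDCs it rose from 19 to 25 (19 higher, 6 lower), and all 19 were among the 25 in either comparison. Calls over all genes rose too, from 4061 of 13559 tested to 7001 of 13955 against iECDCs. Against pECDCs these went from 4881 of 14015 to 9188 of 14345. Values without this library are given below for many of the genes whose call or size depended on it, but not for every one.

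**Figure D2:**
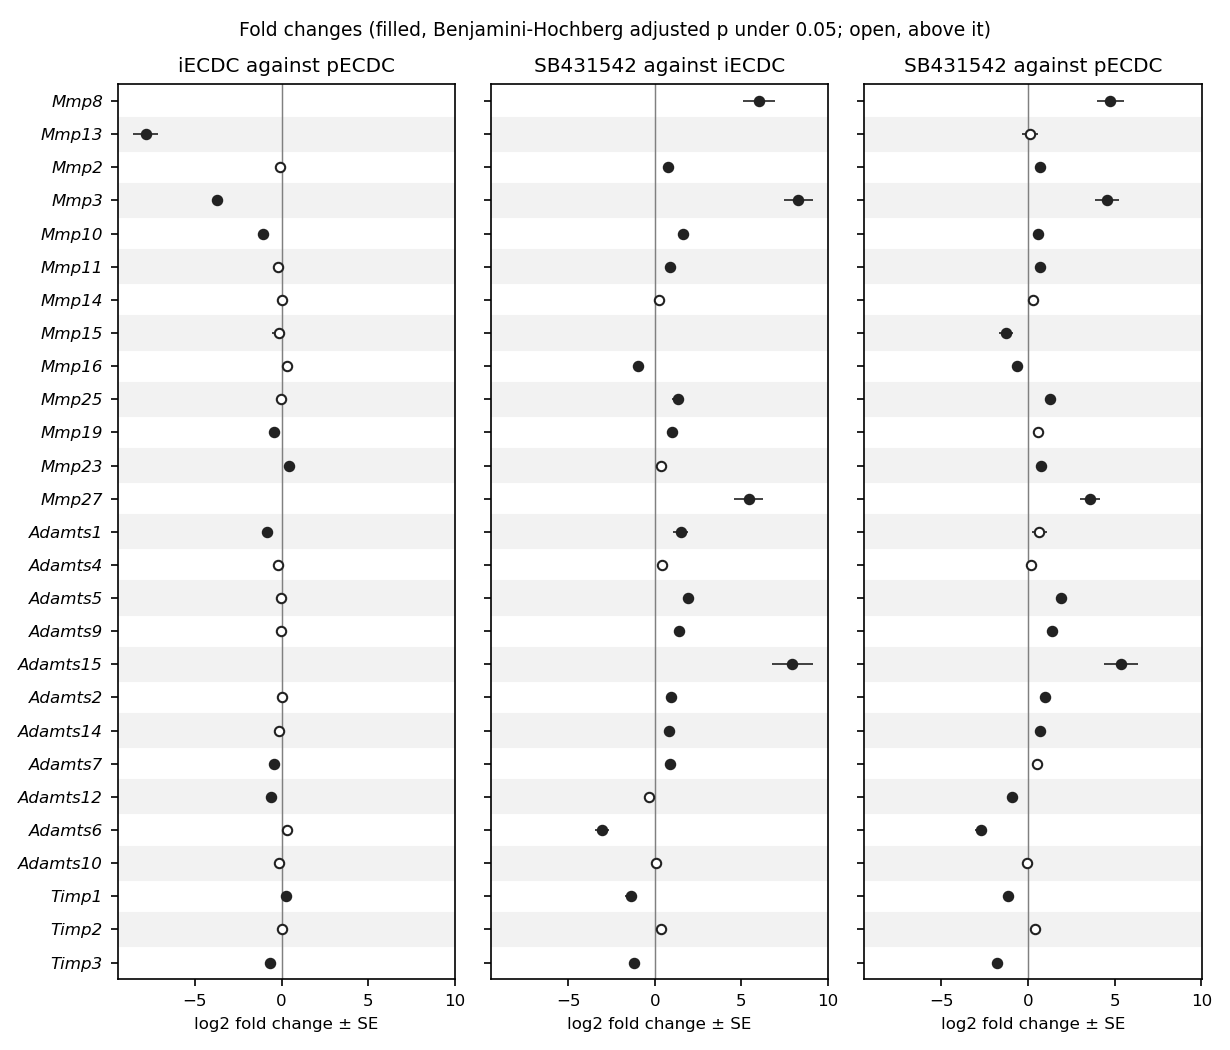
Log2 fold change with its standard error (edgeR) for the same genes in the 3 comparisons, on a shared axis; filled points passed an adjusted p of 0.05. Most points lie near 0 in the first panel and right of 0 in the other 2, where Adamts6, Adamts12, Timp1, Timp3 and Mmp16 and, against pECDCs, Mmp15 and by a little Adamts10 lie left of it; the point of Mmp13 in the first panel rests on 0 counts in iECDCs and depends on the prior count.

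Mmp3, Mmp8, Mmp13 and Mmp27, which showed the largest changes among the Mmp genes, lie in the Mmp cluster of chromosome 9. The changes of Mmp8, Mmp13 and Mmp27 rest on a group with few or no counts. Within 427 kb (GRCm38, chr9:7272514-7699585) lie Mmp13, Mmp12, Mmp1b, Mmp3, Mmp10, Mmp8, Mmp27, Mmp20 and Mmp7, and no other protein-coding gene of the table. The cluster holds collagenases, which open the collagen triple helix, and stromelysins, which have broad substrates and activate other Mmp precursors. Mmp8 and Mmp27 are separated by 2910 bp. Of these 9 genes, Mmp12, Mmp1b, Mmp20 and Mmp7 had 0 to 2 counts in each library, and the other 5 are described next.

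**Figure D3:**
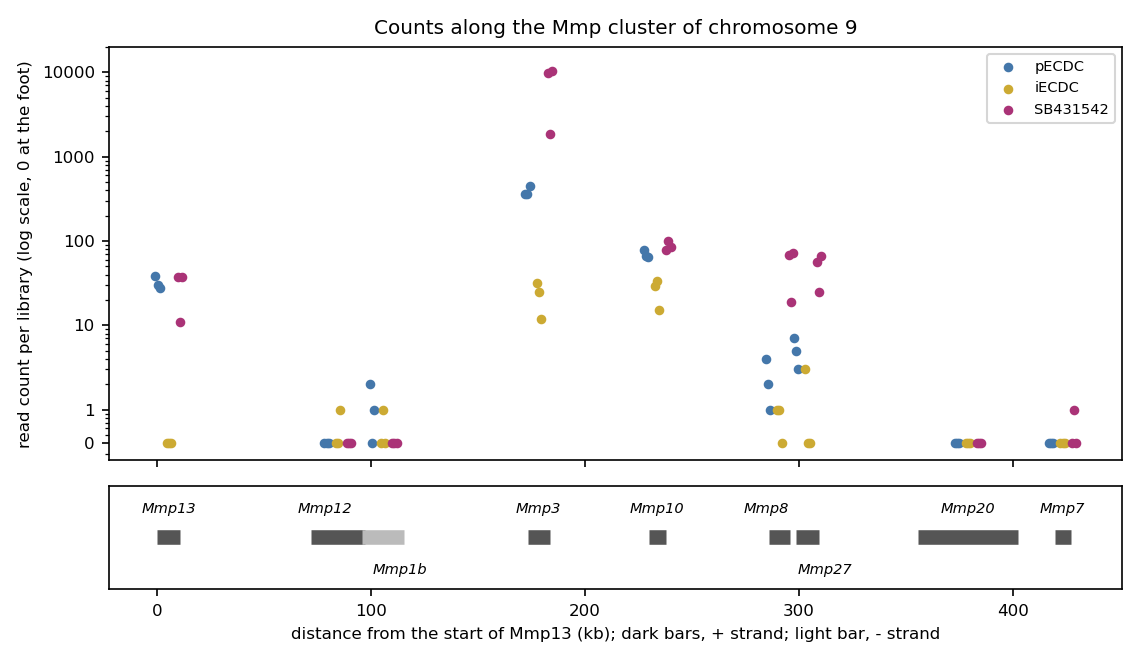
Read counts per library (log scale, 0 drawn at the foot) for the 9 Mmp genes of the chromosome 9 cluster, plotted at the middle of each gene by its distance in kb from the start of Mmp13, with the genes drawn below. All treated libraries lie above all iECDC libraries at Mmp13, Mmp3, Mmp10, Mmp8 and Mmp27, and counts at Mmp12, Mmp1b, Mmp20 and Mmp7 do not exceed 2.

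The promoters of these 5 genes are shown because they lie in the same cluster and all had higher counts in treated cells than in iECDCs. They are not all adjacent, since Mmp12 and Mmp1b lie between Mmp13 and Mmp3. Each run gives the 120 bases before the start of the gene in RefSeq (GRCm38.p6, + strand, 5′ to 3′), and capitals mark a match to TGANTCA, the consensus bound by AP-1 factors. The windows are chr9:7272394-7272513 for Mmp13, chr9:7445702-7445821 for Mmp3, chr9:7502222-7502341 for Mmp10, chr9:7558309-7558428 for Mmp8 and chr9:7571276-7571395 for Mmp27.
Mmp13: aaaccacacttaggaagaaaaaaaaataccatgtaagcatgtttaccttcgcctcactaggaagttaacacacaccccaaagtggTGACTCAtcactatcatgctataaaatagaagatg
Mmp3: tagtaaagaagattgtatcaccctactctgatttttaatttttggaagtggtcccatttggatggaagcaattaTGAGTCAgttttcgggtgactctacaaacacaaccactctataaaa
Mmp10: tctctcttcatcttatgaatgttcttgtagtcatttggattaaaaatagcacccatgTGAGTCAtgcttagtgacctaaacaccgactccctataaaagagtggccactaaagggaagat
Mmp8: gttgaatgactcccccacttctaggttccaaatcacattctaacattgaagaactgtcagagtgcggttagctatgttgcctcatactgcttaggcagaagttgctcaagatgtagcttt
Mmp27: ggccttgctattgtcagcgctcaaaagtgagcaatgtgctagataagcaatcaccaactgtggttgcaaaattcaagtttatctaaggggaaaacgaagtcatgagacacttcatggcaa
The match began 35 bases before the start in Mmp13, 46 in Mmp3 and 63 in Mmp10. Over the 250 bases before the start, on both strands, 7 of the 9 cluster genes held TGANTCA (all but Mmp8 and Mmp27) and 0 of 22 other Mmp, Adamts and Timp genes with an entry did, beside 6.75% of all 32851 promoters in the table. TATAAA was found in 6 of the 9 cluster genes, in 2 of the 22 others and in 12.4% of all promoters. A gene counted if any of its promoter entries matched, whereas the shares of all promoters count promoters and not genes. Mmp12 and Mmp7 each had an entry with TGANTCA and another without it. For Mmp12 the match lay before a start inside the gene (chr9:7347254-7347373). TGANTCA was thus also present in genes of the cluster that had almost no counts, and absent from Mmp8 and Mmp27, which were higher in treated cells. These matches describe letters in a window and not binding, and 14 of the 45 genes had no entry, among them Mmp2, Mmp19, Adamts5 and Adamts15.

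Mmp3 (stromelysin-1; ENSMUSG00000043613, chr9:7445822-7455975) had FPKM of 8.22, 10.2 and 10.7 in pECDCs, 0.880, 0.844 and 0.434 in iECDCs and 315, 48.4 and 322 in treated cells. No library of one group overlapped another, and the treated libraries themselves differed by several-fold, with replicate 2 the lowest. Mmp3 was lower in iECDCs than in pECDCs by a log2 fold change of -3.73 (SE 0.22, adjusted p = 1.15e-05). It was higher in treated cells by 8.29 (SE 0.84, adjusted p = 0.000912) against iECDCs and by 4.57 (SE 0.70, adjusted p = 0.0036) against pECDCs. Without treated replicate 2 these were 8.76 and 5.05. Mmp3 was called under all 15 or 16 alternatives of each comparison. It made up 4.33% to 5.40% of the summed FPKM of all Mmp genes in pECDCs, 0.228% to 0.468% in iECDCs, and 51.3%, 21.04% and 53.7% in the 3 treated libraries.

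Mmp10 (stromelysin-2) had FPKM of 1.87, 1.95 and 1.62 in pECDCs, 0.834, 1.201 and 0.567 in iECDCs and 2.58, 2.79 and 2.76 in treated cells. The groups were separate, and here treated replicate 2 was not the low one. It was lower in iECDCs by a log2 fold change of -1.07 (SE 0.25, adjusted p = 0.0214) and higher in treated cells by 1.65 (SE 0.28, adjusted p = 0.00547) against iECDCs and 0.59 (SE 0.15, adjusted p = 0.0228) against pECDCs. Leaving out any pECDC library or iECDC replicate 1 ended the first call (adjusted p up to 0.0898), and leaving out any pECDC library or treated replicate 1 or 3 ended the last (adjusted p up to 0.1003), as did a fit of all 9 libraries (0.0685).

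Mmp13 (collagenase-3) had 39, 30 and 28 counts in pECDCs, 0 in each iECDC library and 37, 11 and 37 in treated cells. It was thus undetected in iECDCs, where 3 counts per library is the limit that a count of 0 allows. Its level was at least 8.28-fold lower in iECDCs than in pECDCs (adjusted p = 0.000686) and at least 8.95-fold higher in treated cells than in iECDCs, a comparison in which the filter on low counts had removed it. In the first of these it was tested only through its counts in pECDCs and had to differ. Between treated cells and pECDCs it was not called (log2 fold change 0.11, SE 0.47, adjusted p = 0.872).

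Mmp8 (neutrophil collagenase) had 4, 2 and 1 counts in pECDCs, 1, 1 and 0 in iECDCs and 69, 19 and 72 in treated cells. Its neighbour Mmp27 had 7, 5 and 3 counts in pECDCs, 3, 0 and 0 in iECDCs and 57, 25 and 67 in treated cells. Both were near the floor without the inhibitor and low with it, with mean FPKM of 1.21 ± 0.728 and 1.23 ± 0.607 (SD, n = 3) in treated cells. Summed over the group and scaled by depth, Mmp8 was 73.8-fold higher in treated cells than in iECDCs (95% counting interval 20.1 to 615, adjusted p = 0.0033) and Mmp27 45.8-fold (15.4 to 225, adjusted p = 0.00351). These intervals cover counting error only. Both genes passed the filter on low counts only through the treated libraries and had to differ. The leukocyte genes Adgre1, Fcgr1 and Tyrobp were at 0 in every library, Itgam reached 1 count and Ptprc 4. Over the list of 9 leukocyte markers the summed FPKM was 11.9 to 13.4 in pECDCs, 11.2 to 16.05 in iECDCs and 16.0 to 17.7 in treated cells, mostly from Csf1r and Cd14.

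Among the Mmp genes outside the cluster, Mmp2 (gelatinase A, which cleaves denatured collagen and collagen IV; ENSMUSG00000031740) had FPKM of 21.5, 22.7 and 22.9 in pECDCs, 21.3, 21.8 and 19.9 in iECDCs and 42.4, 24.3 and 39.8 in treated cells. Treated replicates 1 and 3 lay well above the rest and replicate 2 just above. It was not called between iECDCs and pECDCs (log2 fold change -0.10, adjusted p = 0.308) and was higher in treated cells by 0.77 (SE 0.20, adjusted p = 0.0225) against iECDCs and 0.68 (SE 0.20, adjusted p = 0.0351) against pECDCs. These calls were lost without any 1 library other than treated replicate 2, with adjusted p up to 0.0819 and 0.117, and without treated replicate 2 the changes were 0.98 and 0.89.

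Mmp11 (stromelysin-3) had FPKM of 9.69, 10.7 and 10.8 in pECDCs, 8.79, 9.44 and 9.16 in iECDCs and 17.6, 15.3 and 18.05 in treated cells. The treated libraries were close together and above all others. It was higher by 0.91 (SE 0.11, adjusted p = 0.00159) against iECDCs and 0.72 (SE 0.10, adjusted p = 0.0022) against pECDCs, under every alternative tried except a minimum log2 fold change of 1. Mmp19, a basement membrane proteinase, had FPKM of 13.3, 15.2 and 14.9 in pECDCs, 11.3, 10.7 and 10.5 in iECDCs and 23.8, 14.8 and 25.6 in treated cells. It was lower in iECDCs (-0.42, SE 0.08, adjusted p = 0.00604) and higher in treated cells than in iECDCs (0.99, SE 0.20, adjusted p = 0.00917). Treated replicate 2 lay within the pECDC range, and against pECDCs Mmp19 was not called (0.58, SE 0.20, adjusted p = 0.0604) but was without that library (0.78). Its counts cannot be told from reads of Tmem198b, which overlaps it on the opposite strand with 271 to 437 counts, since the sources used here do not say whether counting used the strand.

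Among the membrane-bound enzymes, Mmp14 had FPKM of 108, 110.1 and 108 in pECDCs, 107, 112 and 114 in iECDCs and 158, 89.4 and 142 in treated cells. Treated replicates 1 and 3 were above and replicate 2 below every other library. Mmp14 was not called in any comparison (adjusted p = 0.913, 0.396 and 0.336), while without treated replicate 2 it was higher than in iECDCs by 0.44 and than in pECDCs by 0.47. Mmp16 was lower in treated cells, with FPKM of 2.44, 2.24 and 2.40 in pECDCs, 2.47, 2.80 and 3.56 in iECDCs and 1.5001, 1.454 and 1.488 in treated cells. The log2 fold change was -0.98 (SE 0.15, adjusted p = 0.00398) against iECDCs and -0.66 (SE 0.09, adjusted p = 0.00206) against pECDCs. Mmp25 (leukolysin), which is anchored by a lipid, had 47, 51 and 39 counts in pECDCs, 48, 35 and 21 in iECDCs and 109, 76 and 89 in treated cells. It was higher in treated cells by 1.32 (SE 0.30, adjusted p = 0.0145) and 1.27 (SE 0.27, adjusted p = 0.0111), calls that ended without iECDC replicate 2 or treated replicate 1 (adjusted p up to 0.0603) and without pECDC replicate 1 or 3 (up to 0.0541).

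Mmp23, a membrane enzyme without the usual hemopexin domain, had FPKM of 22.5, 23.1 and 25.4 in pECDCs, 34.4, 30.6 and 31.1 in iECDCs and 47.1, 31.2 and 42.5 in treated cells. It was the only Mmp gene of the 13 tested that was higher in iECDCs than in pECDCs (0.43, SE 0.08, adjusted p = 0.00615), and Mmp16 joined it without iECDC replicate 1 (adjusted p = 0.0471). The share of higher Mmp genes, 7.69%, was near the 7.21% of all genes tested. Treated cells were higher than pECDCs (0.78, SE 0.15, adjusted p = 0.00895), but treated replicate 2 lay within the iECDC range and the difference from iECDCs was not called (0.34, SE 0.16, adjusted p = 0.135). Without treated replicate 2, Mmp23 was called as higher in treated cells than in iECDCs. Mmp15 had 12, 21 and 16 counts in pECDCs, 12, 14 and 8 in iECDCs and 6, 7 and 4 in treated cells. It was lower in treated cells than in pECDCs (-1.26, SE 0.41, adjusted p = 0.0487), a call that held in 4 of 13 alternatives. Mmp17 (6 to 20 counts in any library) and Mmp28 (15 to 46 counts) were tested and not called.

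Among the proteoglycan-cleaving ADAMTS enzymes, 4 of 5 tested were higher in treated cells than in iECDCs and 0 lower, beside 16.0% and 14.0% of all genes. One of the 4, Adamts15, passed the filter only through the treated libraries and had to differ. Adamts5 (aggrecanase-2, which cleaves aggrecan and versican; ENSMUSG00000022894) had FPKM of 8.18, 8.18 and 7.48 in pECDCs, 6.60, 7.89 and 8.94 in iECDCs and 33.1, 19.0 and 35.1 in treated cells. The untreated groups overlapped and all treated libraries were above them. It was higher by 1.91 (SE 0.24, adjusted p = 0.0017) against iECDCs and 1.88 (SE 0.23, adjusted p = 0.00155) against pECDCs, under every alternative tried. Adamts9 had FPKM of 5.08, 5.04 and 4.68 in pECDCs, 4.78, 5.61 and 4.35 in iECDCs and 15.9, 7.12 and 15.02 in treated cells. It followed the same pattern, with log2 fold changes of 1.38 (SE 0.28, adjusted p = 0.0101) and 1.37 (SE 0.28, adjusted p = 0.0106). Leaving out iECDC replicate 1 brought the first to an adjusted p of 0.0501, and leaving out pECDC replicate 3 the second to 0.0522.

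Adamts1, which lies 53.1 kb from Adamts5 on chromosome 16 and also cleaves versican, had FPKM of 17.5, 18.7 and 18.4 in pECDCs, 10.4, 11.4 and 8.82 in iECDCs and 36.9, 10.3 and 38.1 in treated cells. It was lower in iECDCs (-0.85, SE 0.09, adjusted p = 0.000437). Treated replicate 2 fell within the iECDC range while replicates 1 and 3 were above every other library. The call against iECDCs (1.49, SE 0.42, adjusted p = 0.0319) held in 9 of 16 alternatives and was lost without any iECDC library or treated replicate 1 or 3 (adjusted p up to 0.102), and against pECDCs there was no call (0.66, SE 0.43, adjusted p = 0.274). Without treated replicate 2 these changes were 1.89 and 1.05, both called.

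Adamts15 was at the floor in untreated cells, with 1, 2 and 7 counts in pECDCs and 1, 0 and 0 in iECDCs, and had 135, 28 and 179 counts in treated cells. The ratio of treated cells to iECDCs was 316 (95% counting interval 56.3 to 12505, adjusted p = 0.0032), and its lower bound is the firmer value. Even so its mean FPKM in treated cells was 0.609 ± 0.430 (SD, n = 3), far under that of Adamts5. Adamts8, 20.1 kb away on the opposite strand, had at most 2 counts. Adamts4 (aggrecanase-1) had FPKM of 6.48, 6.83 and 6.77 in pECDCs, 6.01, 6.87 and 4.59 in iECDCs and 8.56, 5.52 and 8.79 in treated cells. It was called in no comparison (adjusted p = 0.298, 0.188 and 0.417), but was higher in treated cells in both comparisons without treated replicate 2 (0.58 and 0.38).

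Of the procollagen N-proteinases, which remove the amino propeptides of fibrillar procollagens, Adamts2 and Adamts14 were higher in treated cells. Adamts2 had FPKM of 11.3, 11.4 and 11.0 in pECDCs, 9.70, 10.1 and 14.5 in iECDCs and 26.0, 14.7 and 24.2 in treated cells. The lowest treated library was just above the highest iECDC library, replicate 3. The change was 0.93 (SE 0.24, adjusted p = 0.0221) against iECDCs and 0.96 (SE 0.20, adjusted p = 0.0114) against pECDCs. Adamts14 had FPKM of 3.91, 3.88 and 3.80 in pECDCs, 3.10, 3.34 and 4.16 in iECDCs and 6.87, 4.84 and 6.60 in treated cells, with changes of 0.80 (SE 0.17, adjusted p = 0.0127) and 0.67 (SE 0.14, adjusted p = 0.0116). Between iECDCs and pECDCs neither was called, but without iECDC replicate 3 both were lower in iECDCs (Adamts2 at -0.19, Adamts14 at -0.28). Single libraries also ended the treated calls: without iECDC replicate 1 or 2 or treated replicate 1 for both, and without treated replicate 3 for Adamts2, adjusted p rose to at most 0.0930 against iECDCs, and without pECDC replicate 1 or 3 for both and replicate 2 for Adamts14 to at most 0.0540 against pECDCs. Adamts3 had 0 to 16 counts and was not called where it was tested.

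The remaining ADAMTS genes did not move together. Adamts6 had FPKM of 1.30, 1.45 and 1.25 in pECDCs, 2.19, 1.78 and 1.09 in iECDCs and 0.0878, 0.293 and 0.213 in treated cells. All treated libraries were below all others, and the log2 fold change of treated cells was -3.06 against iECDCs (SE 0.41, adjusted p = 0.00211) and -2.72 against pECDCs (SE 0.33, adjusted p = 0.00166), under every alternative tried. Adamts12, which cleaves the cartilage protein COMP, had FPKM of 1.17, 0.975 and 0.953 in pECDCs, 0.612, 0.596 and 0.864 in iECDCs and 0.590, 0.353 and 0.694 in treated cells. It was lower than in pECDCs in iECDCs (-0.60, SE 0.16, adjusted p = 0.0347) and in treated cells (-0.92, SE 0.25, adjusted p = 0.0262). The first call was lost without any pECDC library or iECDC replicate 1 or 2 (adjusted p up to 0.191 over all alternatives) and the second without any pECDC library or treated replicate 1 (up to 0.0989).

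Adamts7, another enzyme that cleaves COMP, had FPKM of 1.64, 1.70 and 1.81 in pECDCs, 1.46, 1.26 and 1.18 in iECDCs and 2.78, 1.51 and 2.96 in treated cells. It was lower in iECDCs (-0.41, SE 0.12, adjusted p = 0.0479), which held in 6 of 15 alternatives and was lost without any pECDC library or iECDC replicate 2. It was higher in treated cells than in iECDCs (0.90, SE 0.26, adjusted p = 0.0331), which held in 9 of 16 and was lost without any iECDC library or treated replicate 1 or 3. Against pECDCs it was not called (0.50, adjusted p = 0.155), but was called as higher without treated replicate 2. Tbc1d2b overlaps it on the opposite strand with 1033 to 1794 counts. Adamts10, which binds fibrillin microfibrils, had FPKM of 6.24, 6.12 and 5.71 in pECDCs, 5.62, 4.53 and 6.29 in iECDCs and 5.91, 4.96 and 6.38 in treated cells. These overlapped, and it was called in no comparison (adjusted p = 0.396, 0.710 and 0.710).

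Of the inhibitors, Timp1 and Timp3 were lower in treated cells and Timp2 was not called. Timp1, a secreted inhibitor (ENSMUSG00000001131, chrX:20870166-20874735, GRCm38), had FPKM of 1208, 1206 and 1246 in pECDCs, 1445, 1425 and 1478 in iECDCs and 375, 897 and 394 in treated cells. Treated replicate 2 lay between the other treated libraries and the untreated groups, and the groups did not overlap. It was higher in iECDCs than in pECDCs (0.23, SE 0.06, adjusted p = 0.0289) and lower in treated cells than in iECDCs (-1.38, SE 0.32, adjusted p = 0.0152) and pECDCs (-1.13, SE 0.32, adjusted p = 0.0325). Without treated replicate 2 these changes were -1.91 and -1.66. The increase in iECDCs held in 7 of 15 alternatives and was lost without any pECDC library or iECDC replicate 2. The decreases were lost without iECDC replicate 1 or 2 or treated replicate 1 or 3 (adjusted p up to 0.0555), and without any pECDC library or treated replicate 1 or 3 (up to 0.0973).

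Timp3, which is bound to the matrix and also inhibits ADAMTS enzymes, had FPKM of 126, 120.1 and 115 in pECDCs, 73.7, 77.2 and 80.6 in iECDCs and 33.2, 37.1 and 31.5 in treated cells. Its libraries were tight and the 3 groups lay far apart, treated replicate 2 included. It was lower in iECDCs (-0.65, SE 0.07, adjusted p = 0.000332), and lower in treated cells than in iECDCs (-1.17, SE 0.12, adjusted p = 0.000836) and pECDCs (-1.82, SE 0.09, adjusted p = 7.76e-05). The 3 calls held under every alternative tried, except that the first is under a minimum log2 fold change of 1. Timp2, which takes part with Mmp14 in the activation of the Mmp2 precursor, had FPKM of 311, 331 and 333 in pECDCs, 310.4, 315 and 389 in iECDCs and 475, 348 and 451 in treated cells. It was called in no comparison (adjusted p = 0.786, 0.152 and 0.0511), and without treated replicate 2 it was higher in treated cells (0.46 and 0.52). Timp4 had at most 2 counts.

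**Figure D4:**
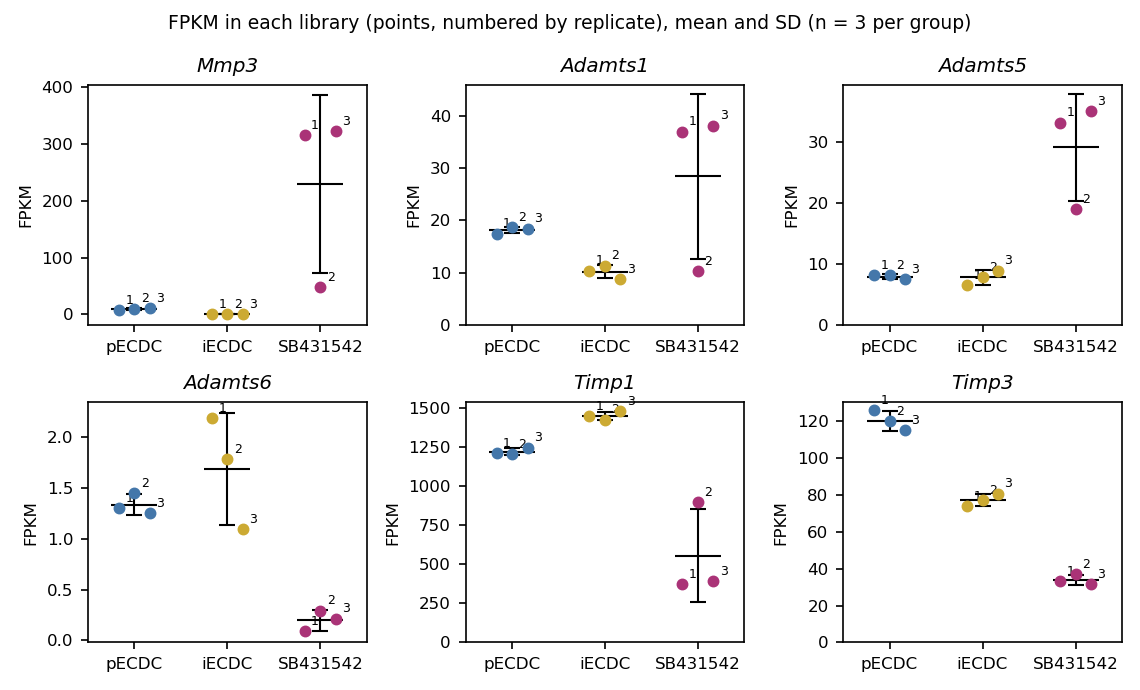
FPKM of Mmp3, Adamts1, Adamts5, Adamts6, Timp1 and Timp3 in each library (points numbered by replicate) with the mean and SD of 3 libraries per group. Treated replicate 2 lies apart from replicates 1 and 3 in Mmp3, Adamts1, Adamts5 and Timp1, and close to them in Timp3.

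Summed over the family, Mmp FPKM was 190 to 198 in pECDCs, 188 to 190 in iECDCs and 613, 230 and 600 in treated replicates 1, 2 and 3. Without Mmp3 the treated sums were 298, 182 and 278, so that replicate 2 then lay within the range of the other groups. Adamts FPKM summed to 62.0 to 64.3 in pECDCs, 50.5 to 54.8 in iECDCs and 138, 68.8 and 139 in treated cells. Timp FPKM summed to 1645 to 1694, 1817 to 1948 and 883, 1282 and 876. The ratio of Timp to Mmp and Adamts sums was 6.32 to 6.52 in pECDCs, 7.47 to 7.96 in iECDCs and 1.18, 4.29 and 1.19 in treated cells. No library of one group overlapped another in this ratio, which is a ratio of transcript levels and not of proteins or activities.

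**Figure D5:**
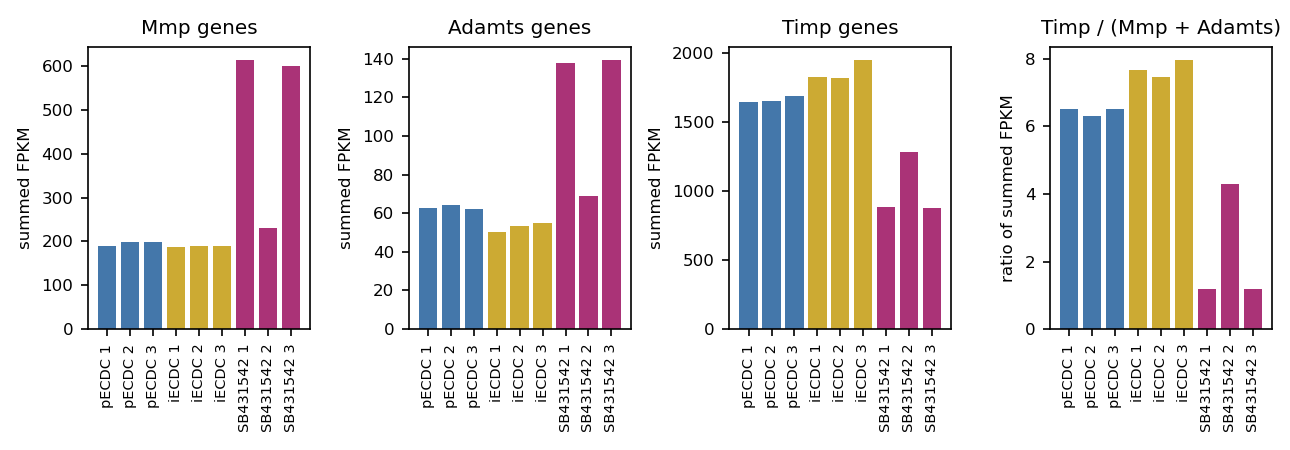
Summed FPKM of the Mmp, Adamts and Timp genes and the ratio of the Timp sum to the Mmp plus Adamts sum in each library, coloured by group. Treated replicates 1 and 3 reach 613 and 600 for Mmp and a ratio of 1.18 and 1.19, and replicate 2 lies at 230 and 4.29.

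Genes that act with these enzymes were followed in lists, whose counts for treated cells against iECDCs stand beside 16.0% of all genes higher and 14.0% lower. Of 14 TGF-β response genes, 1 was higher and 10 lower in treated cells than in iECDCs, with a median log2 fold change of -1.96 beside 0.00 over all genes. Among the lower genes were Ltbp2 (-4.40, SE 0.97, adjusted p = 0.0133), Pmepa1 (-4.29, SE 0.31, adjusted p = 0.00035) and Ctgf (-3.36, SE 0.36, adjusted p = 0.00102), and the gene that was higher was Tgfbi, a secreted matrix protein (3.53, SE 0.56, adjusted p = 0.00405). Between iECDCs and pECDCs 4 of the 14 were higher and 2 lower, with Tgfbi lower by a log2 fold change of -2.74, beside 7.21% and 9.21% of all genes. Against pECDCs 0 were higher and 10 lower in treated cells, beside 17.9% and 17.0%.

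Among proteinases of neighbouring families, the ADAM sheddases, which release membrane-bound ligands, had 4 of 7 tested genes lower and 0 higher in treated cells than in iECDCs (14.0% and 16.0% of all genes), led by Adam12 (-2.83, SE 0.52, adjusted p = 0.00695). Of 2 tested astacin proteinases, the procollagen C-proteinase Tll1 was lower by a log2 fold change of -5.14 (SE 0.31, adjusted p = 0.000315), with 1296, 1119 and 770 counts in iECDCs and 26, 55 and 17 in treated cells. It was also lower in iECDCs than in pECDCs (-0.66). Of 4 tested ADAMTS-like proteins, which have the ADAMTS repeats but no proteinase domain, 1 was higher and 1 lower, the latter being Adamtsl3 (-1.34, SE 0.12, adjusted p = 0.000685).

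Of 11 tested activators and regulators, 2 were higher and 2 lower in treated cells than in iECDCs, near the shares of all genes (16.0% and 14.0%). Tissue plasminogen activator, Plat, was higher (1.55, SE 0.17, adjusted p = 0.00109) and urokinase, Plau, lower (-1.16, SE 0.21, adjusted p = 0.00626). Pcolce, which enhances procollagen C-proteinases, was higher (0.80) and its relative Pcolce2 lower (-1.03). Reck, a membrane-bound inhibitor of several Mmp enzymes, was lower in iECDCs than in pECDCs (-0.64, SE 0.11, adjusted p = 0.00419). Of 12 tested substrates, 2 were higher and 3 lower in treated cells than in iECDCs, beside 16.0% and 14.0% of all genes. Elastin, Eln, was higher (6.23, SE 0.97, adjusted p = 0.00374) with 1, 2 and 3 counts in iECDCs and 238, 37 and 222 in treated cells, as was Col3a1 (1.51), whereas Col5a2 (-1.83), Col4a2 (-1.63) and Col4a1 (-1.56) were lower. Eln passed the filter on low counts only through the treated libraries and had to differ. Versican, Vcan, a substrate of Adamts1, Adamts5 and Adamts9, was lower in iECDCs than in pECDCs (-0.58, SE 0.11, adjusted p = 0.00762) and not called between treated cells and iECDCs.

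The 15 genes tested in no comparison had at most 5 counts in any library. Mmp20, Adamts13, Adamts18 and Adamts19 were at 0 in all 9, and Adamts16 had 0 in each untreated library and 5, 2 and 1 counts in treated cells. The others were Mmp1b, Mmp7, Mmp9, Mmp12, Mmp21, Mmp24, Adamts8, Adamts17, Adamts20 and Timp4. At these depths a change in any of them was not detectable.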

How the data were processed

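RNA of 9 libraries was sequenced. The authors deposited raw read counts for each gene and FPKM values. The submitters' notes name TopHat2 2.0.9, Bowtie2 2.0.6 and mm9, whereas gene coordinates equal those of GENCODE M21 on GRCm38 for 53462 of 54532 genes and 44 of the 45 members. The counting program and its strand setting are not given in the sources used here. The deposited fold changes, p-values and group means of the authors' comparisons (DESeq) were not used.

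The test was edgeR's (version 4.0.16, R 4.3.3) quasi-likelihood test with TMM, filterByExpr (minimum count 10, minimum total 15) and Benjamini-Hochberg adjustment over all tested genes. Each fit held the libraries of the compared groups. Its common biological coefficient of variation was 0.0919 for iECDCs with pECDCs, 0.171 for treated cells with iECDCs and 0.144 for treated cells with pECDCs. Fits were tested on simulated data first. FPKM served for levels, means ± SD and sums. Folds against a group at 0 took a floor of 3 counts per library, and ratios of summed counts have exact 95% binomial intervals for counting error only. Promoters came from RefSeq. Tables and plots used matplotlib 3.10.9, scipy 1.17.1, numpy 2.4.6 and pandas 2.3.3 in Python 3.11.15.

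Named are the members called in a comparison or averaging 1 FPKM or more in a group, and of each further list up to 5 called genes with the largest change and that level. Single results of some genes are not reported here. Members and lists were chosen with earlier results of these data known. Alternatives were a replicate block, RLE or upper-quartile normalization, no filter, a filter of 10 counts in each library, a fit of all 9 libraries, DESeq2 1.42.0, limma 3.58.1 on FPKM as log2(FPKM + 1) or log2(FPKM + 0.1), a minimum log2 change of 1 and leaving out each library. Leaving out iECDC replicate 3 and treated replicate 2 together was added after seeing the data.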

Additional observations from a re-analysis of the deposited data

How the results depend on the processing

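Of the Mmp, Adamts and Timp genes, 10 were called between iECDCs and pECDCs, 19 between SB431542-treated cells and iECDCs and 19 between treated cells and pECDCs. RLE and upper-quartile normalization, no filter, at least 10 counts in every library, DESeq2 and limma on either scale kept these counts within 1.5 times, at 7 to 10, 17 to 20 and 15 to 20. With all 9 libraries in the fit 4 were called in the first comparison, where the treated libraries add their spread, against 21 and 19 in the others. Requiring a log2 fold change of at least 1 left 3, 12 and 11. Leaving out 1 library gave 6 to 14, 12 to 25 and 10 to 25, with the highest count without iECDC replicate 3 in the first and without treated replicate 2 in the others, and the lowest without any 1 pECDC library (6), without treated replicate 1 (12) and without pECDC replicate 3 (10). Leaving out iECDC replicate 3 and treated replicate 2 together gave 27 (22 higher, 5 lower) between treated cells and iECDCs. Calls over all genes moved as well, from 2258, 4061 and 4881 in the 3 comparisons. They were 1036 to 4467, 1707 to 7001 and 2453 to 9188 when 1 library was left out. With all 9 libraries in the fit 671 were called in the first comparison. Without both libraries 8951 were called between treated cells and iECDCs. A log2 fold change of at least 1 left 512, 1434 and 1330. Apart from this minimum change, 3 of 10, 11 of 19 and 10 of 19 genes were called under every alternative that tested them. A single gene took the opposite sign when called, Adamts2 between iECDCs and pECDCs, at -0.19 without iECDC replicate 3 (range -0.19 to 0.12 over the libraries left out).

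The replicate numbers did not pair the samples, since deviations of libraries with the same number correlated at -0.04 to 0.03, -0.28 to 0.03 and -0.07 to 0.03 in the 3 comparisons. A replicate block gave 8, 19 and 17 calls, without Adamts7 and Timp1 in the first comparison and Mmp10 and Mmp15 in the last, and in no comparison did every library correlate best with its own number. Depth limits the genes of few counts, such as Mmp8, Mmp13, Mmp27 and Adamts15, and those under 10 counts could not be tested.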
